A study of Mus musculus with 6 samples.

Results

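E-cadherin, the other cadherins of mammary and mesenchymal cells, the catenins that bind their tails and vinculin were followed through messenger RNA libraries of 4T1 clones. 4T1 cells grow as an aggressive mammary carcinoma in BALB/c mice, the strain they were derived from. The members were the rows of the tables whose gene name was 1 of 9: Cdh1, Cdh2, Cdh3, Cdh11, Ctnna1, Ctnnb1, Ctnnd1, Ctnnal1 and Vcl. Of these, 8 were among the 19179 genes listed, and Cdh2 was not analysed here. Cells were seeded at 1 per well and grown for 14 days. The tissue label reads breast cancer stem cell for 3 libraries, called stem-labelled from here on, and breast cancer cell for the remaining 3, called the other clones. All 6 libraries come from the same line, and the labels name no treatment and state neither how a clone was assigned to its kind nor whether the 10 clones of a kind were pooled into 1 library. The genes were chosen by their measured levels in the contrast between these kinds of clone, so their levels and differences are given as a description, with no test.

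Classical cadherins join neighbouring epithelial cells by binding each other across the gap between membranes. Their cytoplasmic tails hold beta-catenin, which in turn holds alpha-catenin and through it the actin cytoskeleton, while p120-catenin binds the tail nearer the membrane and slows removal of the cadherin from the surface. Vinculin joins alpha-catenin when the junction is under tension. Beta-catenin that is not bound at junctions is degraded or, under WNT signalling, enters the nucleus and activates genes with TCF and LEF factors. E-cadherin is the main classical cadherin of luminal mammary cells and P-cadherin that of myoepithelial cells, and a switch to N-cadherin or cadherin-11 is known from cells of mesenchymal type.

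Levels are in RPKM, the reads of a gene per kilobase of its deposited length and scaled to the authors' library total. A comparison between genes rests on that length. For Ctnna1 and Vcl it is 3698 and 5229 bases, beside 6425 and 8191 exon bases in the GENCODE M21 annotation. Group differences also followed length, as described below. Reads in genes numbered 21196572 to 22838870 in the stem-labelled and 15357608 to 16830762 in the other libraries. Divided by the authors' library total, they gave 0.658 to 0.757 in the former and 1.23 to 1.53 in the latter, and this property of the libraries cannot be told apart from the kind of clone. A fitted difference, given ± SE, is the stem-labelled mean minus that of the other clones in log2 of RPKM + 1, and it is smaller than the ratio of levels for genes of low level. Of the 19179 genes, 10097 reached 1 RPKM in at least 3 libraries and entered the fit, and their median difference was 0.11. The epithelial marker Epcam stood between 50.2 and 59.8 RPKM in all 6 libraries. Of the 6 epithelial markers 5 were measured, with sums of 848 to 1324 RPKM in the stem-labelled and 2089 to 3567 RPKM in the other libraries. Unlike Epcam, Krt8, Krt18, Krt14 and Cldn4 were lower in every stem-labelled library than in every library of the other clones. Their means were 648, 420, 0.162 and 7.72 RPKM against 1220, 1480, 26.2 and 175 RPKM. All 3 measured immune markers (Ptprc, Itgam and Csf1r) were at or below 0.0191 RPKM, and of the fibroblast markers Dcn, Col1a1 and Col1a2 were at or below 0.0854 RPKM and Pdgfra reached 3.34 RPKM. The 4 measured endothelial markers summed to at most 0.128 RPKM in the stem-labelled and 2.89 RPKM in the other libraries, nearly all from Tie1. The 4 neural or glial markers summed to between 1.37 and 4.20 RPKM. The part of these marker levels in the results was not tested.

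The transcript of Cdh1, which encodes E-cadherin, lay far higher in the stem-labelled clones than in the others. It stood at 59.8, 77.8 and 69.1 RPKM in stem-labelled replicates 1, 2 and 3 and at 17.5, 16.7 and 13.7 RPKM in replicates 1, 2 and 3 of the other clones. The groups did not overlap, and the lowest stem-labelled library was 3.42 times the highest other library. The means were 68.9 ± 9.002 and 15.99 ± 1.98 RPKM (SD, n = 3), a ratio of 4.31, and the fitted difference was 2.04 ± 0.22. Behind these values were 28765 reads in the stem-labelled and 2539 reads in the other libraries. Within each library, Cdh1 ranked from the 95.9th to the 97.5th percentile of all listed genes in the stem-labelled clones and from the 82.8th to the 85.5th in the others. The gene (ENSMUSG00000000303) lies on chromosome 8, from 106603351 to 106670246 in the deposited coordinates, which match GRCm38 gene models, and none of its exons overlaps another gene in GENCODE M21. In these bulk libraries fewer cells with a transcript and less of it per cell cannot be told apart.

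Other cadherins of the set were close to absent from every library. Cdh3, which encodes P-cadherin and lies upstream of Cdh1 on the same chromosome (106510913 to 106556908), had 0, 5 and 4 reads in the stem-labelled and 1, 0 and 1 in the other libraries, at most 0.0415 RPKM. Cdh11, a type II cadherin of mesenchymal cells, had 2 reads in replicate 1 of the other clones and 0 reads in the other 5 libraries. A count of 0 for Cdh11 allows a level of up to 0.0221 to 0.0250 RPKM in the stem-labelled libraries (an upper limit of 3 reads, for counting error only). Neither gene passed the filter on low values, and no ratio is given for them. Cdh1 held 99.7% to 100% of the summed level of Cdh1, Cdh3 and Cdh11 in each library. Of 18 further classical and type II cadherins 3 were measured, and Cdh24 alone was tested, at 4.04 ± 0.844 against 5.65 ± 1.65 RPKM (limma adjusted p = 0.189). Its difference was -0.38 on the deposited scale, 0.27 after the correction for length and GC content and 0.39 on rescaling to reads in genes, a change of sign.

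Ctnnb1, the gene of beta-catenin, was the most abundant member in all 6 libraries. Its levels were 175, 254 and 213 RPKM in the stem-labelled and 78.3, 114 and 59.4 RPKM in the other libraries. Every stem-labelled library lay above every other library, though by less than for Cdh1, with the lowest at 1.53 times the highest. The means were 214 ± 39.5 and 84.0 ± 27.9 RPKM (SD, n = 3), a ratio of 2.55 and a fitted difference of 1.37 ± 0.30. Ctnnb1 (ENSMUSG00000006932, chromosome 9, 120929216 to 120960507) shares 759 of its 5192 exon bases with Ulk4 on the opposite strand and 23 with Mir7090, and whether counting used the strand is not given in the sources used here. In rank it stood from the 98.7th to the 99.2nd percentile of listed genes in the stem-labelled and from the 93.3rd to the 96.2nd in the other libraries.

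Ctnna1 encodes alpha-catenin, the actin-binding link of the complex, and had the smallest ratio of the 6 members that entered the fit. It measured 61.9, 61.4 and 59.9 RPKM in the stem-labelled libraries and 38.4, 49.7 and 35.6 RPKM in the others. The stem-labelled libraries were nearly level with each other, with a coefficient of variation of 1.71% against 18.1% in the others, and the closest pair across the groups differed 1.20-fold. The means of 61.1 ± 1.04 and 41.2 ± 7.48 RPKM (SD, n = 3) gave a ratio of 1.48 and a fitted difference of 0.57 ± 0.22. The gene (ENSMUSG00000037815) lies on chromosome 18, from 35118888 to 35254773. Its relative Ctnnal1, which encodes alpha-catulin, a protein related to alpha-catenin and vinculin, stood at 6.07, 4.85 and 7.79 RPKM against 3.95, 3.00 and 2.96 RPKM. Here too the groups did not overlap, with a ratio of means of 1.89 and a fitted difference of 0.74 ± 0.22. Ctnnal1 (ENSMUSG00000038816) spans 56810935 to 56865188 on chromosome 4 and shares no exon with another gene.

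Ctnnd1 encodes p120-catenin, which binds cadherin tails near the membrane, and was the least abundant of these 6. It stood at 2.0005, 1.88 and 2.86 RPKM in the stem-labelled and 0.699, 0.889 and 0.896 RPKM in the other libraries. It passed the filter on low values only through the stem-labelled libraries, since all others were below 1 RPKM. The ratio of means was 2.71, while the fitted difference was 0.82 ± 0.19 because of the added 1 RPKM, and with an added 0.1 it was 1.32. The value is uncertain: Ctnnd1 (ENSMUSG00000034101, chromosome 2, 84600071 to 84650765) shares 4482 of its 7319 exon bases with Gm28635 on the same strand, and 69.5% of the 50-base stretches of its longest transcript occur in another gene. Vcl encodes vinculin, which is found at cadherin junctions and at integrin adhesions. Its levels were 12.5, 8.95 and 11.2 RPKM in the stem-labelled and 6.19, 7.08 and 5.51 RPKM in the other libraries, again without overlap. The means were 10.9 ± 1.82 and 6.26 ± 0.790 RPKM (SD, n = 3), with a fitted difference of 0.71 ± 0.21. Of the 8191 exon bases annotated for Vcl (ENSMUSG00000021823, chromosome 14, 20929433 to 21033673), 2090 are shared with Ap3m1 on the opposite strand.

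**Figure D1:**
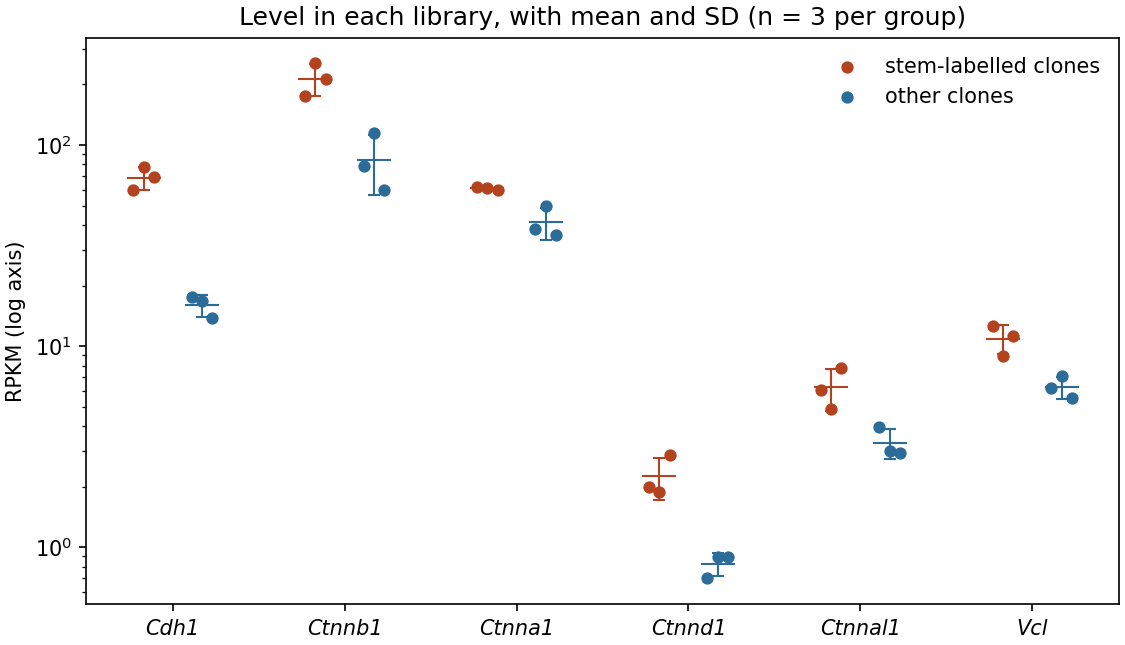
RPKM (log axis) of the 6 members that passed the filter in each library, with points for the 3 libraries of each group, the group mean as a long bar and the SD as an error bar. For every gene all stem-labelled points lie above all points of the other clones, with the widest gap for Cdh1 and the narrowest for Ctnna1.

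For all 6 genes that passed the filter the stem-labelled libraries lay above the others, which held for 35.7% of all tested genes (27.8% lay below). With libraries rescaled to their reads in genes the 6 genes again lay above, beside 61.0% of all tested genes above and 12.6% below. The fit across all genes put 5 of the 6 past its threshold as higher, all but Ctnna1, where 55.2% of all tested genes were called, 29.9% higher and 25.4% lower. These counts describe genes chosen with this contrast known, and nothing is read from them. Order among the genes, which rests on the deposited lengths, was partly different in the 2 kinds of clone. In the stem-labelled clones Ctnnb1 led, Cdh1 and Ctnna1 followed with overlapping levels (Cdh1 above Ctnna1 in 2 of 3 libraries), and Vcl, Ctnnal1 and Ctnnd1 came after them without overlap. In the other clones Ctnna1 stood above Cdh1 in 3 of 3 libraries, and no neighbours in the order overlapped.

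Ratios of 2 members within a library do not depend on how the library was scaled, and those with Cdh1 in the denominator were lower in the stem-labelled clones for 3 partners. The ratio of Ctnna1 to Cdh1 was 1.04, 0.790 and 0.867 in the stem-labelled and 2.19, 2.97 and 2.59 in the other libraries. For Ctnnb1 to Cdh1 the ratio was 3.09 ± 0.169 against 5.21 ± 1.41 (SD, n = 3), and for Vcl to Cdh1 it was 0.162 ± 0.0474 against 0.393 ± 0.0355. None of these 3 ratios overlapped between the groups, and neither did Ctnna1 to Ctnnb1, at 0.292 ± 0.0566 against 0.508 ± 0.0836. The remaining 4 ratios overlapped, among them Vcl to Ctnna1 (0.179 ± 0.0294 and 0.153 ± 0.00959) and Ctnnd1 to Ctnnb1 (0.0108 ± 0.00308 and 0.0106 ± 0.00392). The ratios combine levels given above, of members chosen with this contrast known. How often ratios of other gene pairs separate the groups was not computed. The lengths of Ctnna1, Cdh1, Ctnnb1 and Vcl were 3698, 4574, 5099 and 5229 bases.

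**Figure D2:**
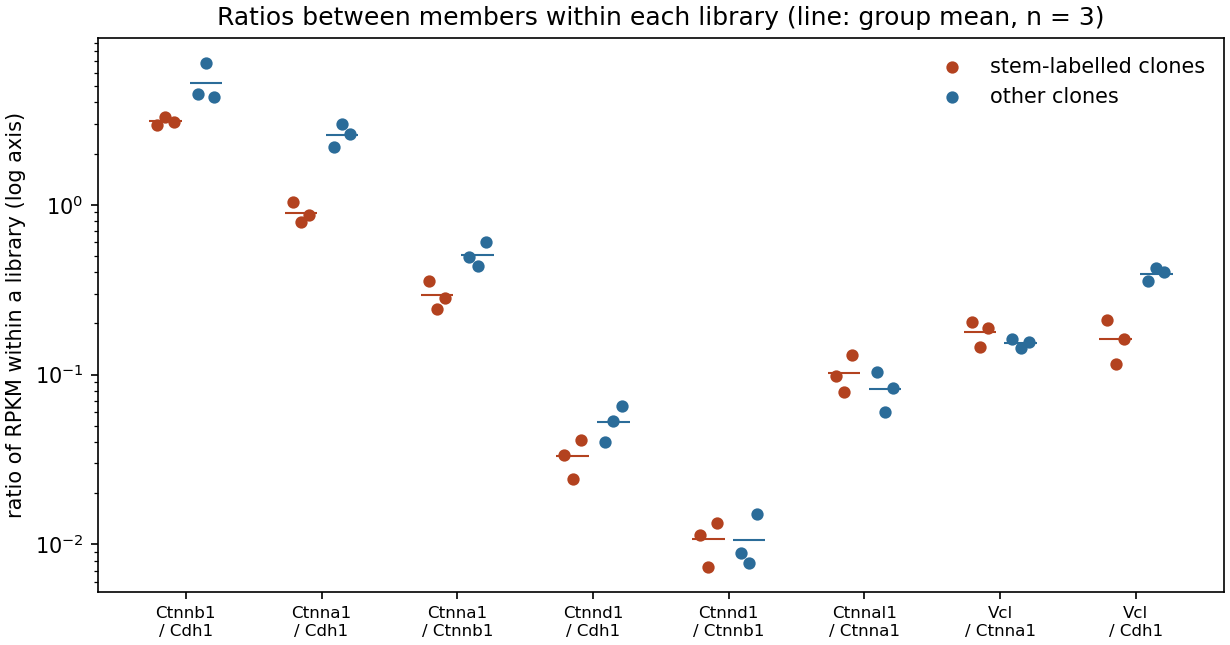
Ratio of RPKM between pairs of members within each library (log axis), with points for libraries and a line for the mean of each group. The ratios of Ctnnb1, Ctnna1 and Vcl to Cdh1 lie lower in all 3 stem-labelled libraries, whereas Vcl to Ctnna1 and Ctnnd1 to Ctnnb1 overlap.

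Differences between the kinds of clone followed gene length over the 10097 tested genes, and the members are long genes. The median difference ran from -1.18 in the decile of the shortest genes, 57 to 1074 bases long, to 0.71 in that of the longest. In the deciles that hold the members it was 0.21 for Ctnna1, 0.33 for Cdh1 and Ctnnb1, 0.45 for Vcl and 0.58 for Ctnnd1 and Ctnnal1. The share of all tested genes called higher in those deciles was 30.7%, 37.3%, 42.4% and 51.4%. Cdh1 stood 1.71 above the median of its decile and Ctnnb1 1.04, whereas the other 4 stood between 0.15 and 0.36 above theirs. When each library was corrected for length and GC content, Cdh1 kept a difference of 1.36 ± 0.19 and Ctnnb1 of 0.61 ± 0.25. Ctnna1, Ctnnd1, Ctnnal1 and Vcl then lay at 0.032, -0.092, 0.074 and -0.036. After the correction 1 of the 6 genes, Cdh1, was called higher, with 47.2% of all tested genes called, 22.3% higher and 24.9% lower. Scaling moved all values the other way: with each library rescaled to its reads in genes, the 6 differences ran from 1.35 for Ctnnd1 to 2.94 for Cdh1, while the median of all genes moved from 0.11 to 0.86. In that case 6 of the 6 were called higher, with 71.0% of all tested genes called, 58.7% higher and 12.3% lower. On both scales these counts again describe genes chosen with this contrast known, and nothing is read from them. Whether the length trend is a property of the libraries or of the clones was not tested.

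**Figure D3:**
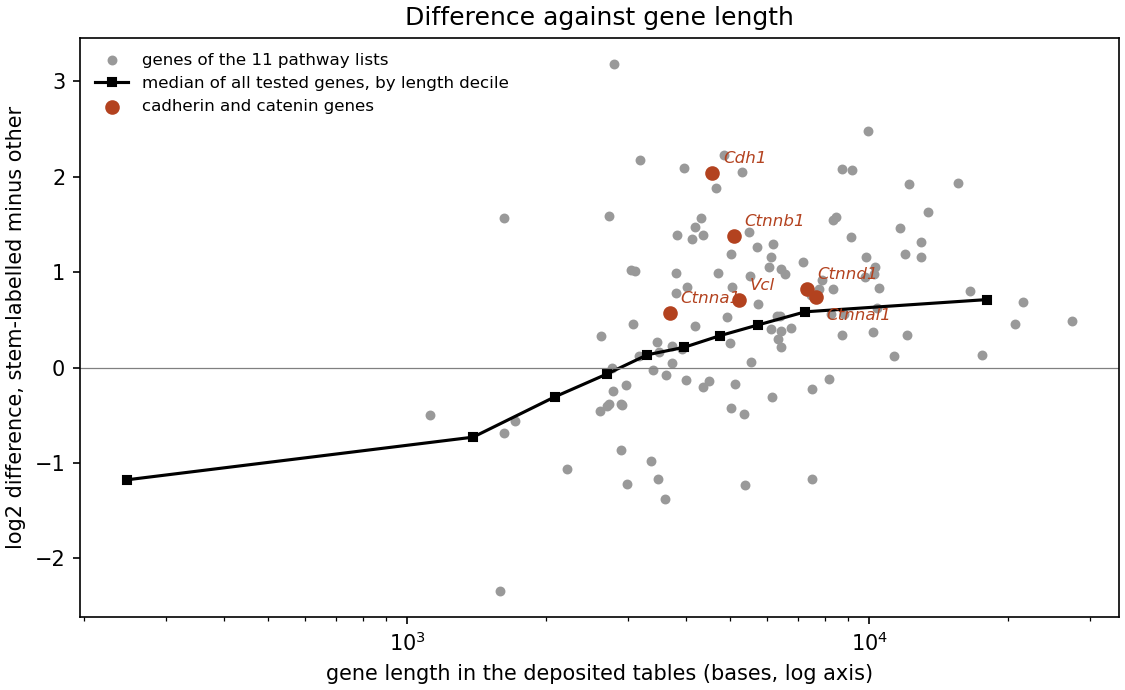
Fitted log2 difference (stem-labelled minus other) against gene length in bases (log axis) for the 6 members, for the tested genes of 11 pathway lists, and for the median of all tested genes in each length decile, drawn at the geometric mean of the decile's bounds. The median climbs from -1.18 to 0.71, and Cdh1 and Ctnnb1 lie farther above it than the other members.

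**Figure D4:**
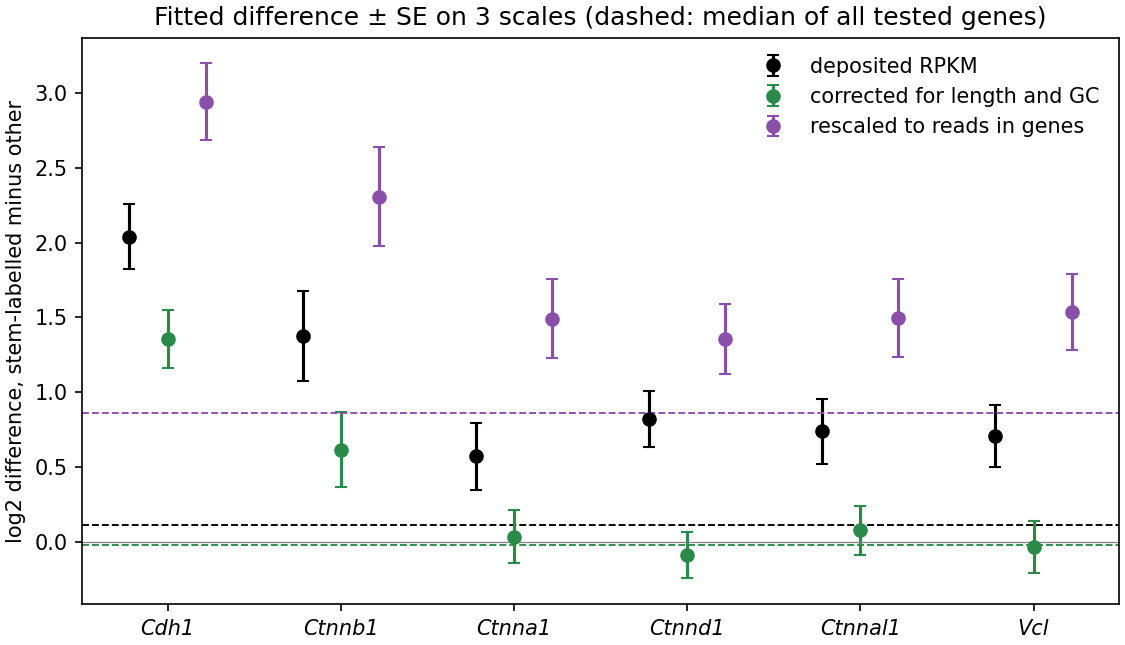
Fitted log2 difference ± SE of the 6 members on the deposited scale, after correction for length and GC content and after rescaling to reads in genes, with the median of all tested genes on each scale as a dashed line. Cdh1 is highest on every scale, and Ctnna1, Ctnnd1, Ctnnal1 and Vcl fall to the median of all genes after the correction.

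The stretches before the start sites of Ctnnb1, Ctnnal1 and Vcl are shown because windows free of annotated exons were at hand for these genes. Vinculin is a textbook target of serum response factor, which binds the CArG box. Sequences are from RefSeq (GRCm38.p6), 250 bases up to the start on the gene's strand, and the table used had entries for 4 of the 9 genes. Only windows that overlap no annotated exon are printed, at chr9:120933150-120933399 on the plus strand for Ctnnb1, chr4:56865212-56865461 on the minus strand for Ctnnal1 and chr14:20929148-20929397 on the plus strand for Vcl. The window of Ctnnb1 lies inside the deposited span of that gene, before a RefSeq start within it. A further RefSeq window of Ctnnb1 overlaps annotated exons and is not printed. Motifs were searched on both strands, and capitals mark GGGCGG, the GC box bound by Sp1, and the CArG box.
Ctnnb1: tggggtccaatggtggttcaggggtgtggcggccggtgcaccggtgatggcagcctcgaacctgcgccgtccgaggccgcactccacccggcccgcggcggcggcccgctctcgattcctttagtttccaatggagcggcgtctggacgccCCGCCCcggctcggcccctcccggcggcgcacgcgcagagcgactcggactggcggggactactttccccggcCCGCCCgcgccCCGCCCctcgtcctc
Ctnnal1: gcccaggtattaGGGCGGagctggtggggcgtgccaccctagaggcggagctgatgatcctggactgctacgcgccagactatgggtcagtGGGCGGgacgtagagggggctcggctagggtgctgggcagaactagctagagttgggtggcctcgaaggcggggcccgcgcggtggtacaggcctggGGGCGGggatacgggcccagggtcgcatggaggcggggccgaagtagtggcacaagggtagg
Vcl: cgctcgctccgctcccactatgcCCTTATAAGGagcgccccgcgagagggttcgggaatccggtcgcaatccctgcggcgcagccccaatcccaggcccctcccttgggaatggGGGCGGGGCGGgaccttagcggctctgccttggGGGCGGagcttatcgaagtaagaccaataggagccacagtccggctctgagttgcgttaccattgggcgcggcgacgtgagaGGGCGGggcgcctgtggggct
The GC box occurred 3 times in the window of Ctnnb1, 3 times in that of Ctnnal1 and 4 times in that of Vcl, where 2 of the matches overlap. It was present in 32.7% of the 32851 RefSeq windows of this length. The GC content of the 3 windows was 74.8%, 68.4% and 67.2%, and they were not compared with windows of like content. The window of Vcl also held 1 CArG box, CCTTATAAGG, which begins 227 bases before the start, overlaps no GC box and is a motif held by 1.47% of all windows. None of the 3 windows held CANNTG, the E-box of basic helix-loop-helix factors (66.2% of all windows), its form CACCTG, which Snail and Zeb factors also recognise (17.2%), or the TCF motif CTTTGAT (3.21%). A match describes letters only and does not show that a factor binds there.

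The transcripts that over the 6 libraries moved most like Cdh1 were found by the root mean square difference between centred log2 profiles, over 5949 tested genes with a mean of at least 5 RPKM. The nearest was Ptgfrn, which encodes a regulator of prostaglandin F2 receptors, at 34.2 ± 2.96 against 7.25 ± 0.929 RPKM and a distance of 0.073. Ank, a transporter gene known for pyrophosphate export, came next at 108 ± 6.61 against 27.8 ± 3.98 RPKM and a distance of 0.082. Tpp1, a lysosomal peptidase gene, followed at a distance of 0.11, and the ubiquitin ligase gene Rnf149 and Zfyve1 each at 0.13. Rnf149 shares 26.9% of its 50-base stretches with another gene. Among the members Ctnnb1 stood at place 334 in this order, Vcl at 1196 and Ctnna1 at 1341, while Ctnnal1 and Ctnnd1 were below the level required. The distance rests largely on the size of the fitted group difference. That difference was 1.93 to 2.10 for the 5 nearest genes and 2.04 for Cdh1. Shared regulation was not tested.

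Genes that work with cadherins and beta-catenin were counted in 11 lists, which together named 186 genes other than the members, of which 149 were measured and 115 were tested. Of the 115, 60 (52.2%) were called higher in the stem-labelled clones, 9 (7.83%) lower and 46 were not called (limma, adjusted p under 0.05), where 29.9% and 25.4% of all tested genes were. Of the 60 higher genes 9 passed the filter on low values only through the stem-labelled libraries. Of the 9 lower genes 1 passed only through the other libraries. For these 10 the groups could not overlap, though a call was not fixed by this. The 9 higher genes were Enah, Vezt, Dsg2, Ptpn14, Ptprj, Tle1, Znrf3, Rnf43 and Tcf4, and the 1 lower gene was Snai3. Tcf7l2 also passed only through the stem-labelled libraries and was not called (limma, adjusted p = 0.120). The median difference of the 115 was 0.56 against 0.11 for all tested genes, and their median length was 5360 bases. In the decile of 5197 to 6336 bases 42.4% of all tested genes were called higher and 10.9% lower. After the correction for length and GC content 34 were called higher (29.6%) and 15 lower (13.0%), beside 22.3% and 24.9% of all tested genes. After rescaling to reads in genes 93 were higher (80.9%) and 2 lower (1.74%), beside 58.7% and 12.3% of all tested genes. For each list below the same shares of all tested genes apply, 29.9% higher and 25.4% lower. They are 22.3% and 24.9% after the correction, and 58.7% and 12.3% on rescaling. No list was tested as a set.

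Nectins are immunoglobulin-like adhesion molecules that gather at the same junctions and are tied to actin by afadin. Of 9 tested genes of this system 6 rose, 1 fell and 2 were not called, with a median of 0.98 (0.15 after the correction). Plekha7, which binds p120-catenin at the apical junction, rose from 1.06 ± 0.196 to 3.56 ± 0.201 RPKM (1.15 ± 0.18, adjusted p = 0.000649, 0.59 after the correction). Afdn, the afadin gene, rose from 4.46 ± 0.188 to 10.2 ± 3.55 RPKM (0.98 ± 0.25, adjusted p = 0.00851) but stood at -0.092 after the correction. Nectin2 fell from 18.7 ± 3.65 to 7.78 ± 1.60 RPKM (-1.17 ± 0.23, adjusted p = 0.00235), a call that was lost on rescaling, where it stood at -0.30.

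Actin linkers and vinculin partners connect junctions and integrin adhesions to actin filaments. Of 21 tested, 9 rose, 1 fell and 11 were not called. The median difference of the list was 0.37, and 0.042 with the correction. The alpha-actinin genes Actn1 and Actn4, whose products crosslink filaments and bind vinculin, rose to 131 ± 4.13 and 114 ± 13.9 RPKM from 66.1 ± 10.99 and 55.0 ± 11.9 RPKM. Their differences were 0.99 ± 0.23 and 1.06 ± 0.25 (adjusted p = 0.00608 and 0.00589), or 0.57 and 0.66 after the correction. Limd1, a LIM protein of junctions, had the smallest p of those that rose, from 3.22 ± 0.664 to 18.6 ± 1.65 RPKM (2.23 ± 0.20, adjusted p = 0.000117, 1.58 after the correction). Zyx, which encodes zyxin, another LIM protein recruited to stretched actin, went the opposite way, from 56.3 ± 13.1 to 23.0 ± 2.51 RPKM (-1.23 ± 0.24, adjusted p = 0.00240). After the correction it stood at -1.40, and on rescaling at -0.32, where it was not called.

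Among the other armadillo proteins, relatives of beta-catenin and p120-catenin, few were called. Of 8 tested, 1 rose, 1 fell and 6 were not called, with a median of -0.32. After the correction 0 were higher and 3 lower (37.5%, beside 24.9% of all tested genes), with a median of -0.22. On rescaling 4 were higher (50%, beside 58.7% of all tested genes) and 0 lower. Jup, which encodes plakoglobin, the closest relative of beta-catenin and able to take its place at cadherins, stood at 39.8 ± 7.69 against 35.5 ± 13.9 RPKM (0.22 ± 0.31, adjusted p = 0.571), and on rescaling it was called higher, at 1.13. Without replicate 1 of the other clones its difference was -0.082, and without replicate 2 of them 0.49. Pkp4, a p120-catenin relative, rose from 3.15 ± 0.973 to 8.94 ± 1.86 RPKM (adjusted p = 0.00182) and missed the threshold after the correction (0.50, adjusted p = 0.0590). Pkp3, a desmosomal plakophilin, fell from 142 ± 58.2 to 51.3 ± 10.5 RPKM (-1.38 ± 0.34, adjusted p = 0.00764), and on rescaling its difference of -0.45 was not called. A difference between Jup and Ctnnb1 in their response was not tested.

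Most measured genes of the larger cadherin family were below the filter on low values. Of 13 measured atypical cadherins and protocadherins 4 were tested and 3 rose. Clstn1, a calsyntenin of vesicle transport, rose from 27.9 ± 6.52 to 104 ± 11.4 RPKM (1.88 ± 0.25, adjusted p = 0.000336, 1.91 after the correction). Fat1, a giant cadherin upstream of Hippo signalling, rose from 1.33 ± 0.254 to 8.195 ± 3.10 RPKM (1.94 ± 0.25, adjusted p = 0.000315, 0.75 after the correction). Of 3 measured desmosomal cadherins, the adhesion molecules of desmosomes, Dsg2 alone was tested, at 1.59 ± 0.459 against 0.738 ± 0.0594 RPKM (0.56 ± 0.19, adjusted p = 0.0282). It passed the filter only through the stem-labelled libraries. Leaving out replicate 1, 2 or 3 of the other clones or stem-labelled replicate 3 ended its call (adjusted p = 0.0538 to 0.0685), as did testing with no filter on low values (0.0592), and its sign turned after the correction, to -0.38.

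Cadherin turnover and signalling genes act on the complex at the membrane. Of 24 tested, 12 rose, 2 fell and 10 were not called, with a median of 0.60 (0.20 after the correction). With the correction 7 were higher (29.2%) and 4 lower (16.7%). Ptpn14, a tyrosine phosphatase of junctions, rose from 0.865 ± 0.111 to 4.77 ± 0.170 RPKM (1.63 ± 0.17, adjusted p = 0.000148, 0.54 after the correction), having passed the filter only through the stem-labelled libraries. Yes1, a Src family kinase, fell from 3.03 ± 0.948 to 0.785 ± 0.341 RPKM (-1.17 ± 0.23, adjusted p = 0.00220, -1.42 after the correction and -0.60 on rescaling). The most abundant genes of the list, Arf6, a GTPase of E-cadherin endocytosis, and Cdc42, a GTPase of polarity, stood at 70.4 ± 8.77 against 61.1 ± 14.3 and at 64.1 ± 4.06 against 73.4 ± 11.8 RPKM. Neither was called (adjusted p = 0.483 and 0.516), whereas on rescaling both were called higher, at 1.15 and 0.75.

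The destruction complex marks free beta-catenin for degradation, and it includes scaffolds, kinases and ubiquitin ligase subunits. Of 14 tested, 10 rose (71.4%), 2 fell and 2 were not called, with a median of 0.79, beside 29.9% of all tested genes higher and 25.4% lower. After the correction 3 were higher (21.4%, beside 22.3% of all tested genes), 1 was lower and the median was 0.20. Fbxw11, which encodes a beta-TrCP ubiquitin ligase subunit that recognises phosphorylated beta-catenin, rose from 6.40 ± 0.444 to 20.9 ± 2.14 RPKM (1.56 ± 0.19, adjusted p = 0.000251, 0.98 after the correction). Gsk3a, a kinase of the complex, fell from 47.4 ± 3.63 to 25.7 ± 2.41 RPKM (-0.86 ± 0.21, adjusted p = 0.00625) and stood at 0.055 on rescaling and -0.32 after the correction, not called in either. Gsk3a shares 820 of its 2900 exon bases with a gene on the opposite strand.

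Of 11 tested TCF, LEF and beta-catenin cofactor genes 4 rose and the other 7 were not called. Tle1, a corepressor that TCF factors bind when beta-catenin is absent, rose from 0.786 ± 0.0782 to 6.63 ± 1.44 RPKM (2.08 ± 0.20, adjusted p = 0.000131, 1.18 after the correction). This gene too was below 1 RPKM in all other libraries and was tested only because of the stem-labelled group. Cby1, which encodes an inhibitor of beta-catenin, stood at 44.2 ± 11.1 against 62.5 ± 13.8 RPKM (-0.50 ± 0.27, adjusted p = 0.143), and after the correction it was called higher, at 0.58 (adjusted p = 0.0498), while on rescaling it stood at 0.42, not called. Of 11 tested genes often used as readouts of beta-catenin activity 7 rose (63.6%) and the other 4 were not called, where 29.9% of all tested genes rose. Among those that rose, Znrf3, Rnf43 and Tcf4 were below 1 RPKM in all other libraries and were tested only because of the stem-labelled group. After the correction 4 were higher and 7 not called, beside 22.3% of all tested genes higher. Apcdd1, a membrane inhibitor of WNT signalling, rose from 1.02 ± 0.338 to 17.5 ± 4.13 RPKM (3.18 ± 0.23, adjusted p = 9.54e-05, 2.91 after the correction). Its level and corrected difference rest on a deposited length of 2799 bases, beside 12884 exon bases in GENCODE M21. Ccnd1, the cyclin D1 gene, rose from 146 ± 22.7 to 289 ± 38.8 RPKM (0.99 ± 0.26, adjusted p = 0.0102) but missed the threshold after the correction (0.29, adjusted p = 0.268). It shares 1100 of its 4709 exon bases with a gene on the opposite strand. Fosl1 stood at 116 ± 25.9 against 168 ± 12.7 RPKM (adjusted p = 0.0930), and limma-voom on the recovered reads called it lower (adjusted p = 0.0429). Its difference of -0.56 turned to 0.47 after the correction and to 0.38 on rescaling, not called in either. Fosl1 shares 1163 of its 2033 exon bases with Ccdc85b on the opposite strand.

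Transcription factors known to act on Cdh1 included repressors and activators, and members of both kinds rose. Of 11 tested, 7 rose, 2 fell and 2 were not called, with a median of 0.84, and after the correction 5 were higher and 3 lower. The repressors Twist1 and Tcf3 (E2A) rose to 39.9 ± 4.79 and 79.3 ± 17.004 RPKM from 12.8 ± 1.16 and 43.6 ± 8.26 RPKM. Their differences were 1.57 ± 0.20 and 0.84 ± 0.26 (adjusted p = 0.000328 and 0.0213), or 2.70 and 1.18 after the correction. The call of Tcf3 was lost without replicate 1 of the other clones and without replicates 1 and 2 of the stem-labelled clones (adjusted p = 0.0650 to 0.0826), and with limma-voom (0.0525). Gata3, a luminal factor, rose from 3.39 ± 0.600 to 17.8 ± 3.47 RPKM (2.09 ± 0.22, adjusted p = 0.000148, 1.498 after the correction). Snai3, a Snail family gene, fell from 4.90 ± 3.12 to 0.0559 ± 0.0339 RPKM (-2.34 ± 0.34, adjusted p = 0.000529, -1.19 after the correction), on 276 reads against 8, and passed the filter only through the other clones. Snai1, chosen after its values were seen as the Snail gene best known for binding the Cdh1 promoter, stood at 12.3 ± 3.82 against 20.2 ± 5.11 RPKM (-0.68 ± 0.27, adjusted p = 0.0539), with 0.48 after the correction and 0.20 on rescaling.

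**Figure D5:**
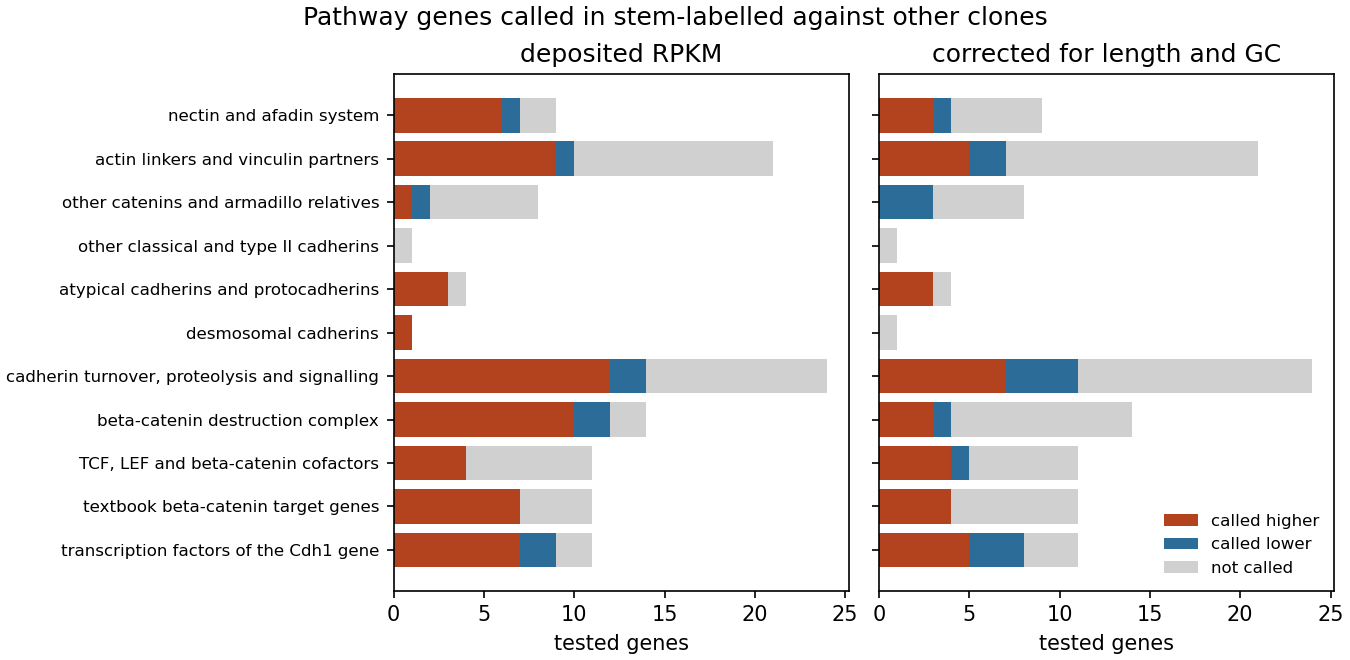
Number of tested genes in each of the 11 pathway lists that were called higher, called lower or not called in the stem-labelled clones, on the deposited scale (left) and after correction for length and GC content (right). Of the 115 genes 60 were called higher and 9 lower on the deposited scale, and 34 and 15 after the correction.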

How the data were processed

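The submitters sequenced messenger RNA of 6 4T1 clone samples, and groups were taken from the tissue labels. The authors deposited 1 table per library with RPKM for 19179 genes. The submitters' processing notes name Bowtie2 2.0.6, TopHat2 2.0.9 and mm9 without roles, while the coordinates of 80.6% of the genes found in GENCODE M21 equal its GRCm38 start and end. The counting program and strand are not given in the sources used here. RPKM times gene length gave whole multiples of 1 step per library for 100% of values (tolerance 0.01), which returned the reads. No 2 libraries of a group agreed within counting noise.

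Group differences came from limma 3.58.1 (R 4.3.3) with a variance trend, applied to the log2 of RPKM plus a pseudocount of 1. A gene was tested if 3 or more of the 6 libraries reached 1 RPKM (10097 genes). Tests were two-sided, and p-values were adjusted by Benjamini-Hochberg over all tested genes, with a threshold of 0.05. For the correction, deviations of a library from the gene means were modelled by natural splines of length on a log2 scale and of GC content, each with 5 degrees of freedom, and the fit was subtracted; GC content was known for 99.9% of tested genes. Other scalings, filters, pseudocounts, limma settings, limma-voom on the recovered reads, a replicate block and leaving out each library were tried. The members and lists were chosen with earlier results of these data known. Named genes were the members, the 2 most abundant tested genes of each list, the called gene with the smallest p in each direction, and the 5 profiles nearest to that of Cdh1, not all of them described. The labels speak of 3 batches from independent experiments but tie no library to one, so p-values measure the spread between these libraries, which may be technical. The fit was tested on simulated data.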

Additional observations from a re-analysis of the deposited data

How the results depend on the processing

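The genes called numbered 5577 over all genes and 69 over the pathway lists, and the median difference of the 6 members was 0.78. When genes had to average 5 RPKM, 3477 and 38 genes were called, since fewer genes were tested. The members' median was 0.053 with the correction for length and GC content, with or without the replicate block, 1.10 with a pseudocount of 0.1 and 1.52 on rescaling to reads in genes. Replicate block plus correction called 40 pathway genes. Among the members and named list genes, signs turned with the correction, with and without the block, for Ctnnd1 (-0.092), Vcl (-0.036), Afdn (-0.092), Dsg2 (-0.38), Cby1 (0.58, called only without the block), Cdh24 (0.27), Fosl1 (0.47) and Pygo2 (0.17). On rescaling Cdc42 (0.75), Gsk3a (0.055), Pygo2 (0.83), Cdh24 (0.39), Cby1 (0.42) and Fosl1 (0.38) turned. With upper-quartile scaling Cdc42 (0.076) and Pygo2 (0.17) turned, without replicate 1 of the other clones Jup (-0.082) and without replicate 2 of them Pygo2 (0.090). The cause was not tested. With the replicate block alone 5212 genes and 63 pathway genes were called and Dsg2 was lost (adjusted p = 0.0533). The replicate numbers share only a number: deviations of same-numbered libraries correlated at -0.125, 0.026 and -0.085. Leaving out 1 library at a time, with the same genes tested, gave 4747 to 5555 called genes, 61 to 64 pathway genes and member medians of 0.69 to 0.89, and Cdh1 lay between 1.94 and 2.14.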
